A study of Mus musculus with 3 samples.

Results

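The SLC25 family of mitochondrial carriers was followed in normal mouse liver, in a liver tumor of a Gnmt-/- mouse and in the Ymac-1 cell line. Members were all genes whose symbol in the array annotation was Slc25a followed by a number. This rule found 45 genes of 19084 with a single annotated symbol, measured by 50 of the 26423 probes on the array. A gene with several probes was represented by the brightest over the arrays, which applied to 5 members, while 40 had 1 probe. The choice used no difference between the samples. Family members that carry other symbols (Ucp1, Ucp3, Mtch1 and Mtch2) were kept apart, and Slc25a5 and Ucp2 were not analysed here.

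SLC25 proteins are built from repeated transmembrane modules and, with few exceptions, sit in the inner mitochondrial membrane, which is otherwise closed to most solutes. They exchange nucleotides, phosphate, carboxylates, amino acids, acylcarnitines, cofactors and iron between cytosol and matrix. In hepatocytes such carriers connect the matrix steps of the urea cycle, fatty acid oxidation, gluconeogenesis and the malate-aspartate shuttle with the cytosolic steps.

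Each condition was measured on 1 array, hybridised with Cy5-labelled RNA. The normal liver came from a female wild type mouse and the tumor, labelled Gnmt-/- HCC, from a female mouse that lacks both copies of Gnmt, a glycine N-methyltransferase abundant in hepatocytes. Ymac-1 is a continuous line grown in DMEM under CO2, set up by the study from a liver tumor of an old Gnmt-/- mouse and passaged many times, so that the loss of Gnmt is shared by the tumor and the line. Whether the arrayed tumor gave rise to the line, or how old the arrayed mice were, was not given in the sources used here. With 1 mouse, 1 tumor and 1 cell line there was no replicate and no test across samples was possible, so every difference compares these arrays and not the conditions in general. A gene was called higher or lower where log2 intensity differed by 1 or more, with intensities under a floor of 50 set to it. Folds are given as "at least" where the lower value lay at or under the floor. Intensities of different probes are not comparable in level.

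Gnmt itself read 3583 in liver, with 15.6 in HCC and 56.1 in Ymac-1, so that the tumor lay at least 71.7-fold below the liver. The median probe intensity was 15.8, 38.5 and 27.6 on the liver, HCC and Ymac-1 arrays. A total of 7687 genes passed the floor everywhere, and their median log2 difference was 0.65 for HCC minus liver, 0.06 for Ymac-1 minus HCC and 0.72 for Ymac-1 minus liver, so most genes read brighter on the tumor and cell line arrays than on the liver array. Of 12 hepatocyte markers, 10 were measured, and their summed intensity was 241172 in liver, 335221 in HCC and 3653 in the line. All 10 were lower in the line than in HCC, and Alb, Ttr, Apoa1, Cps1 and F2 did not exceed the floor in the line. The other 5 were above the floor on all 3 arrays, among them Apob and Hnf4a at 2414 and 752 in the line. By PCR the study reported albumin RNA in Ymac-1 above that of spleen and brain, though far below normal liver. The study also found albumin and other liver plasma proteins in the Ymac-1 culture medium. All 6 endothelial markers were under the floor in the line, while they summed to 1638 in liver and 4575 in HCC. The tumor and the liver are mixtures of cells and the line is not, and in bulk RNA fewer cells of a type and less RNA per cell cannot be told apart.

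Most of the family was expressed in liver. Of the 45 members, 36 were above the floor in liver, 40 in HCC, 36 in Ymac-1 and 33 on all 3 arrays. Slc25a2, Slc25a18, Slc25a41, Slc25a53 and Slc25a54 were under the floor on every array. Of all 19084 genes, 11626 were above the floor in HCC, in Ymac-1 or in both, against 40 of 45 members, so that a larger part of the family than of the array could be called in that comparison.

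**Figure D1:**
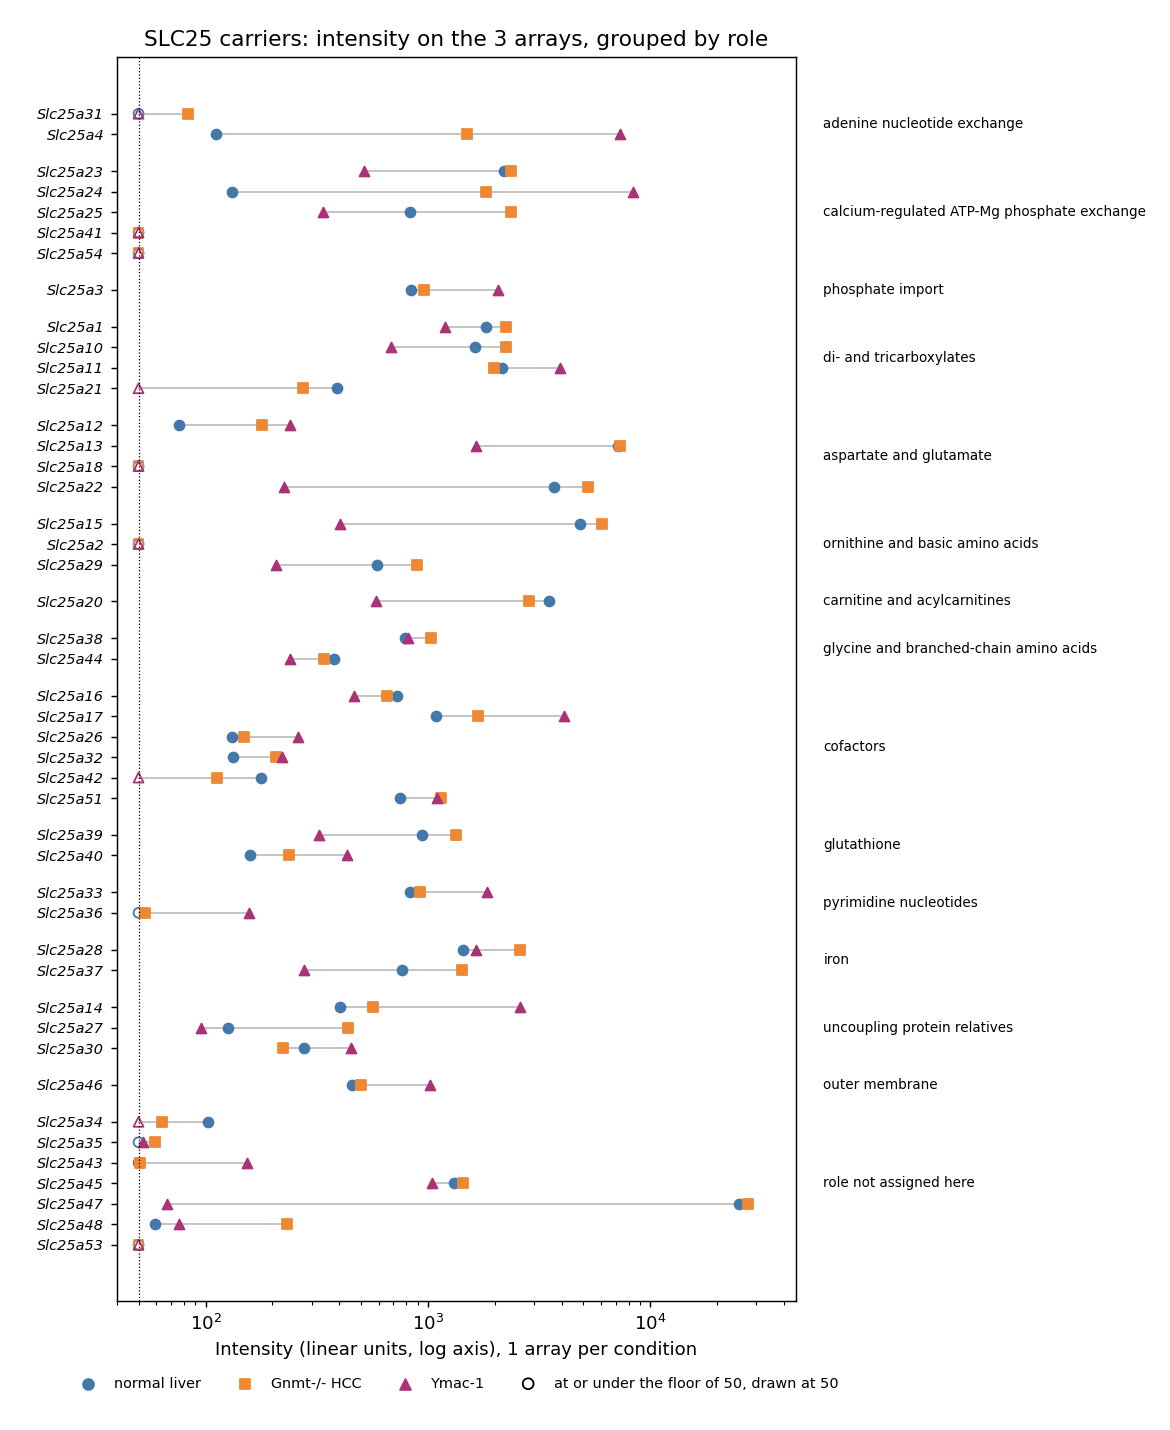
Intensity of each of the 45 SLC25 genes on the normal liver, HCC and Ymac-1 arrays, on a log axis, grouped by substrate, with 1 point per array, open symbols at or under the floor of 50 and a dotted line at that floor. Slc25a47 fell from 27574 in HCC to 67.2 in Ymac-1, and Slc25a4 and Slc25a24 rose from 112 and 132 in liver to 7271 and 8352 in Ymac-1.

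In the deposited values few members passed the threshold between liver and tumor, and more did between the cell line and either tissue. HCC minus normal liver gave 6 members higher (13.3%) and 0 lower, whereas 15.9% of all genes were higher and 0.749% lower. Above the floor on 1 or both arrays, 15% of 40 members were higher and 0 lower, against 28.2% and 1.33% of genes. The members' median difference was 0.19, against 0.02 over all genes. Genes under the floor on both arrays enter these medians as 0. Without them the medians were 0.32 for members and 0.66 for all such genes, so the order was reversed. Between Ymac-1 and HCC, 9 of the 45 members were higher and 15 were lower (33.3%), against 14.7% and 15.9% of all genes. The members' median was -0.34 and that of all genes 0.00, or -0.47 and -0.04 without those under the floor on both arrays. Among only those genes that lay above the floor in HCC, in Ymac-1 or in both, 24.2% were higher and 26.1% lower. The matching shares of the 40 such members were 22.5% and 37.5%. Ymac-1 minus normal liver gave 11 members higher (24.4%) and 14 lower (31.1%), against 23.3% and 9.41% of all genes. The median was 0.00 for members and for all genes. Above the floor on 1 or both arrays, 28.2% of 39 members were higher and 35.9% lower, against 40.9% and 16.5% of genes. There the medians were 0.06 for members and 0.64 for genes. Each array enters a pair of these comparisons, so they are not independent of each other.

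Over the 3 samples together, 12 members whose liver and HCC values lay within the threshold of each other were lower in Ymac-1 than in both: Slc25a10, Slc25a13, Slc25a15, Slc25a20, Slc25a21, Slc25a22, Slc25a23, Slc25a29, Slc25a37, Slc25a39, Slc25a42 and Slc25a47. This pattern held for 6.8% of all genes. Another 6, Slc25a3, Slc25a14, Slc25a17, Slc25a36, Slc25a43 and Slc25a46, were likewise higher in Ymac-1 than in both tissues, a pattern of 10.8% of all genes. Slc25a4 and Slc25a24 were higher at both steps, in HCC than in liver and again in Ymac-1, as were 3.67% of all genes, and 0 members were lower at both (0.383% of all genes). Slc25a25, Slc25a27 and Slc25a48 were higher in HCC than in either other sample (6.24% of all genes), and Slc25a25 was also lower in Ymac-1 than in liver. Markers of other cells had their highest sums there too, with few genes behind most of them. Of 5 macrophage markers measured of 6, 4 were higher in HCC than in liver, while Marco fell from 693 to 229, and the list summed to 2208, 4656 and 857 in liver, HCC and Ymac-1. Neutrophil markers (4 of 5) summed to 178, 2743 and 42.0, of which S100a9 was 2431 in HCC. Stellate cell and fibroblast markers (6 of 6) summed to 15604, 31623 and 111, of which Dcn was 29179.7 in HCC, while Reln read 1631 in liver and 1541 in HCC. The adipocyte list (4 of 5) summed to 106, 7222 and 148, with Fabp4 nearly all of the HCC sum and Adipoq and Lep under the floor. Bile duct markers (4 of 5) had their highest sum in the line, at 159, 684 and 14649, mostly Krt7 (6382) and Krt19 (7891). Of these markers 3 were higher in Ymac-1 than in HCC, while Epcam was lower, at 66.5, 382 and 0.541 in liver, HCC and Ymac-1. The defining markers S100a8 of neutrophils and Col1a1 and Col3a1 of fibroblasts were under the floor on every array. The part of these cells in the members that peaked in HCC was not tested. For 17 members no difference reached 1, compared with 58.3% of all genes. The remaining 5 (Slc25a12, Slc25a30, Slc25a33, Slc25a34 and Slc25a40) passed in 1 or more comparisons without a pattern of this kind. Many of all genes lay under the floor and could not be called. Of the 33 members above the floor on all 3 arrays, 10 were within the threshold throughout, against 30.6% of such genes. Of the same 33, 10 were lower in Ymac-1 than in both tissues (10.3% of genes) and 4 higher (16.5%). A further 2 were higher at both steps (6.58%) and 3 were higher in HCC than in both (6.73%).

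**Figure D2:**
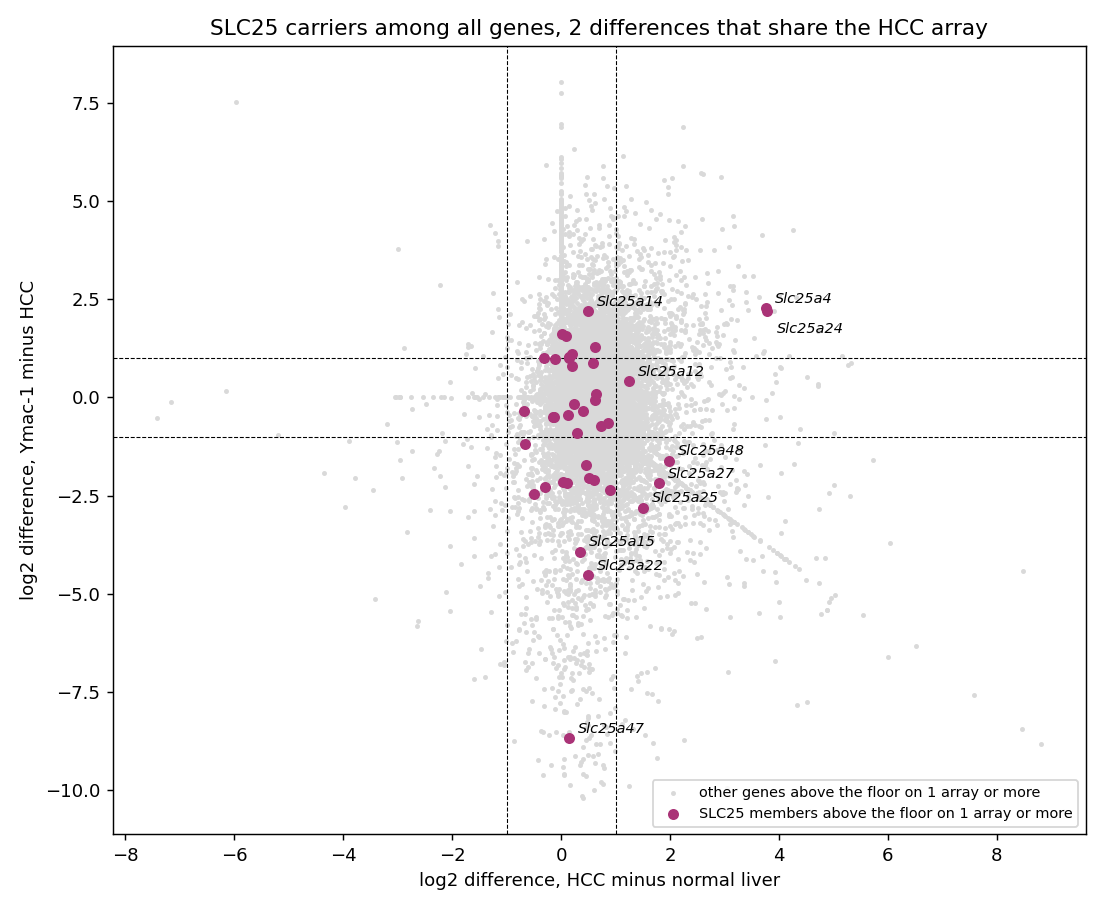
Log2 difference of HCC minus normal liver (horizontal axis) against Ymac-1 minus HCC (vertical axis), 1 point per gene, with the 40 SLC25 members above the floor on 1 array or more over all other such genes and dashed lines at -1 and 1. Both axes use the HCC array, so the cloud as a whole cannot be read as a relation between the steps. Slc25a4 and Slc25a24 lie at 3.75 and 3.79 on the horizontal axis, and Slc25a47 lies at -8.68 on the vertical one.

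Promoters of selected members are shown so that large differences can be set beside sequence. They are the 250 bases before a RefSeq transcription start (GRCm38.p6), read 5′ to 3′ along the gene, with motif matches in capitals. RefSeq windows were matched for 35 of the 45 members, 45 windows in all. Slc25a47 had the largest fall, Slc25a15 is the ornithine carrier of the urea cycle, and Slc25a4 and Slc25a24 rose at both steps. Slc25a22, which fell more from HCC to Ymac-1 than Slc25a15 (23.2-fold against 15.2-fold), is not shown.
Slc25a47, chr12:108850879-108851128, forward strand: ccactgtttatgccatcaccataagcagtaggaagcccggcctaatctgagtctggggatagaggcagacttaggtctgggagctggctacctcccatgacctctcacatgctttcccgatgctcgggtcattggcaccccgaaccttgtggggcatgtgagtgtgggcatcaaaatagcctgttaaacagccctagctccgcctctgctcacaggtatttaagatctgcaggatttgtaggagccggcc
Slc25a15, chr8:22398278-22398527, reverse strand: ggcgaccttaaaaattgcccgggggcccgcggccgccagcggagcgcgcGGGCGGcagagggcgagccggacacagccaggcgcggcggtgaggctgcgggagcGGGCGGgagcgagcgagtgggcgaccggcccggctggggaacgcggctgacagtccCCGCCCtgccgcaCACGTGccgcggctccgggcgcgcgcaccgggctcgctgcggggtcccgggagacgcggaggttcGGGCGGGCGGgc
Slc25a4, chr8:46211063-46211312, reverse strand: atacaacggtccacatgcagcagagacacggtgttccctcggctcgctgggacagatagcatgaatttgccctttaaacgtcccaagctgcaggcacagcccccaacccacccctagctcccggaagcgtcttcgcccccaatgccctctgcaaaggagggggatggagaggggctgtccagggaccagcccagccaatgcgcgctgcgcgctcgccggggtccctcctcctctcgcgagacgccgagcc
Slc25a24, chr3:109122899-109123148, forward strand: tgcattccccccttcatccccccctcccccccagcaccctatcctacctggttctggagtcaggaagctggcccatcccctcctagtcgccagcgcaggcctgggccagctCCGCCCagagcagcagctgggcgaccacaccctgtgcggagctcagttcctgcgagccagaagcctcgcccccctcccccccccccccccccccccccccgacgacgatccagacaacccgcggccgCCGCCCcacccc
Each window was searched on both strands for 6 short motifs. The core promoter motifs were the TATA box, searched as TATAAA, and the GC box bound by Sp1 factors, searched as CCGCCC. The E-box, a palindrome read by many basic helix-loop-helix factors, was searched as CACGTG. For the hepatocyte factors HNF1 and HNF4 the letters were GTTAAT and CAAAGTCCA. For NRF1, a regulator of mitochondrial genes, they were GCATGCGC. Matches of different motifs did not overlap in the printed windows. The Slc25a47 and Slc25a4 windows held no match, and the Slc25a24 window held 2 GC boxes. The Slc25a15 window printed above held 5 GC boxes, 2 of which overlap, and 1 E-box. A second Slc25a15 window lies further upstream and is not printed. These are letter matches and not measured binding sites.

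Across the family, a GC box was found in 31 of 45 windows (68.9%), in 42.6% of the windows of protein-coding genes and in 32.7% of all 32851 windows. An E-box was found in 8 member windows (17.8%) and in 6.02% of all windows, and a TATA box in 2 (4.44%) against 12.4%. The HNF1 motif was in 1 member window (2.22%; 6.43% of all windows), the HNF4 motif in 0 (0.384% of all) and the NRF1 motif in 2 (4.44%; 2.26% of all). The GC box was about as frequent in windows of the members lower in Ymac-1 than in both tissues (11 of 16) as in those of the members that were higher in Ymac-1 than in both or higher at each step (6 of 9). The median number of CG dinucleotides per window was 9 in the former and 14 in the latter, with 10 over protein-coding windows. These groups were formed from the measured differences, and genes with several windows count more than once.

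The adenine nucleotide carriers exchange ADP for ATP across the inner membrane. Slc25a4, the isoform known for its high level in heart and skeletal muscle, read 112 in liver, 1505 in HCC and 7271 in the line. The first step was a rise of 13.5-fold and the second of 4.83-fold, or 65.1-fold from liver to the line. Of 4 muscle markers measured, Acta1, Ckm and Mb were under the floor on every array. The 4 summed to 24.5, 31.8 and 573 in the same order. Tnnt2 read 5.97, 10.3 and 556, so it made up nearly all of the Ymac-1 sum. The part of muscle genes in the Slc25a4 values was not tested. Slc25a31, the testis isoform, read 13.4, 83.2 and 49.7, with only HCC above the floor.

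Among the calcium-regulated carriers that exchange ATP-Mg for phosphate, the paralogs moved in opposite directions. Slc25a24 (SCaMC-1) read 132 in liver, 1820 in HCC and 8352 in Ymac-1, a rise of 13.8-fold and then 4.59-fold. Slc25a23 (SCaMC-3) read 2201, 2362 and 518 and lay 4.56-fold below its HCC value in the line. Slc25a25 (SCaMC-2) was highest in the tumor, at 834, 2370.0 and 338. Slc25a41, related to Slc25a23 but without the calcium-binding domain, and Slc25a54 were under the floor throughout. Slc25a4 and Slc25a24 thus had nearly the same profile over these arrays. Of 3 proliferation markers measured, 2 were also higher at both steps, Mki67 from 20.8 to 227 and 2120.1 and Top2a to 148 in HCC and 4649 in Ymac-1. The part of these markers in the rise of the carriers was not tested.

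The phosphate carrier Slc25a3, which supplies phosphate for ATP synthesis, read 839, 959 and 2076, a rise of 2.17-fold from HCC to Ymac-1. Its difference from liver to Ymac-1, 1.31, was 0.51 to 0.64 under the other 4 scalings and not called there. Of the 4 carriers of di- and tricarboxylates, 2 were lower in the line than in HCC and none was higher. Of all genes, 15.9% were lower and 14.7% higher. Slc25a10, the dicarboxylate carrier, read 1634 in liver, 2236 in HCC and 682 in Ymac-1, 3.28-fold lower in the line than in the tumor. Its second, dimmer probe read 196, 185 and 45.2, under the floor in the line, so its fall from HCC is only a lower bound. Slc25a21, the oxodicarboxylate carrier of lysine and tryptophan breakdown, fell from 388 and 273 to 22.3 in Ymac-1, a fall of at least 5.46-fold from HCC. The citrate carrier Slc25a1, which exports citrate for lipid synthesis, read 1826, 2245 and 1192. Its difference from liver to Ymac-1, -0.62, was -1.28 to -1.42 under the other 4 scalings and so was called lower there. The oxoglutarate carrier Slc25a11 read 2147, 1986 and 3946, a difference of 0.99 from HCC to Ymac-1 that lay just outside the threshold and passed it under median (1.47) and upper quartile (1.13) scaling.

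Of the 4 carriers of aspartate and glutamate, 2 were lower in the line than in HCC and none was higher, beside 15.9% and 14.7% of all genes. Slc25a13 (citrin), the main aspartate-glutamate carrier of hepatocytes and a component of the malate-aspartate shuttle, read 7120.0 in liver, 7330 in HCC and 1643 in Ymac-1, a fall of 4.46-fold from HCC to the line. Slc25a12 (aralar), its counterpart in brain, muscle and heart, read 76.1, 179.8 and 239.9. Its step from HCC to Ymac-1 was 0.42, and its rise of 3.15-fold from liver (1.66) was under the threshold after median scaling (0.86), upper quartile scaling (0.99) and centring (0.94). The mitochondrial glutamate carrier Slc25a22 read 3702, 5221 and 225, a fall of 23.2-fold from HCC to Ymac-1. Its paralog Slc25a18 was under the floor on all arrays. In the same comparison 4 of 6 enzymes of the malate-aspartate and glycerol phosphate shuttles were lower and none was higher, with a median of -1.60. Gpd1, the cytosolic glycerol phosphate dehydrogenase, read 17520, 17195 and 109, whereas Mdh2, the matrix malate dehydrogenase, read 11692, 20527 and 24648.

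Carriers tied to the urea cycle were lower in the line together with its enzymes. Slc25a15, which brings ornithine into the matrix and exports citrulline, read 4823 in liver, 6092 in HCC and 400.5 in Ymac-1, a fall of 15.2-fold from HCC. Slc25a29, a carrier of basic amino acids, read 593, 895 and 207. The ornithine carrier paralog Slc25a2 was under the floor. Of 5 urea cycle genes with a probe, 4 were lower in the line than in the tumor, beside 15.9% of all genes. Cps1, Arg1 and Nags were under the floor in the line, so their falls are lower bounds. The median of -4.91 over the 5 is such a bound and counts Otc as 0. Cps1, which makes carbamoyl phosphate in the matrix, read 7067, 13199 and 4.49, and Nags, which makes its activator, read 976, 1498 and 39.8. Otc was under the floor on all 3 arrays, liver included, where the enzyme is normally abundant, so its probe gave no measure. Ass1 was not analysed here. Cps1 is also among the hepatocyte markers, all 10 of which were lower in the line, and the part of those markers in the fall of these carriers was not tested.

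The carnitine-acylcarnitine carrier Slc25a20, through which long-chain fatty acids enter beta-oxidation, read 3512 in liver, 2852 in HCC and 586 in Ymac-1, 4.86-fold lower in the line than in HCC. Its second probe read 2884, 2174 and 780.1, a smaller fall of 1.48 on the log2 scale. Its partners outside the family fell as well. Cpt1a, the outer membrane acyltransferase, read 7801, 11602 and 1432, and Cpt2, the inner membrane one, read 21977, 14835 and 3208. Among amino acid carriers of the remaining kind, Slc25a38, which imports glycine for heme synthesis, read 787, 1037 and 818. Slc25a44, a branched-chain amino acid carrier, read 379, 341 and 239.7. Neither passed the threshold in any comparison.

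Cofactor carriers were mixed. Slc25a17, a peroxisomal carrier of coenzyme A and related cofactors, read 1086, 1672 and 4084, with a rise of 2.44-fold from HCC to the line. Slc25a42, the mitochondrial coenzyme A carrier, read 178, 113 and 4.34, a fall of at least 2.26-fold between HCC and the line, which was under the threshold after quantile, median and upper quartile scaling. In the deposited values these 2 carriers of the same cofactor, in different organelles, differed in opposite directions. With a floor of 100 the difference of Slc25a42 was only -0.18. Slc25a16 read 723, 656 and 466, and Slc25a26, the S-adenosylmethionine carrier, read 131, 149.5 and 259.9. Slc25a32, the folate carrier, read 133, 207 and 221, and Slc25a51, the NAD carrier, read 749, 1150 and 1103. None of these passed the threshold in the deposited values. Slc25a16 lay at -1.29 to -1.43 for Ymac-1 minus liver under the other 4 scalings. For Ymac-1 minus HCC, Slc25a26 passed under quantile (1.10) and median (1.28) scaling. Gnmt uses the methyl donor that Slc25a26 brings into mitochondria. The difference of Slc25a26 between HCC and liver was 0.19 as deposited and -0.46 to -1.09 under the other 4 scalings, so its direction was not settled.

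Of the glutathione carriers, Slc25a39 read 945, 1344 and 325, a fall of 4.13-fold between tumor and line. For Slc25a40, which read 158, 237 and 433, that step was 0.87 and not called. It passed under quantile (1.01), median (1.35) and upper quartile (1.01) scaling. The rise of Slc25a40 by 2.74-fold from liver to Ymac-1 (1.45) was 0.65 to 0.79 under the other 4 scalings and not called there. The pyrimidine nucleotide carriers were both higher in the line than in liver in the deposited values. Slc25a33 read 830.3, 918 and 1836. Its step from HCC to Ymac-1 (1.00 after rounding) fell just short of the threshold and passed under median (1.48) and upper quartile (1.14) scaling. Its difference from liver to Ymac-1, 1.15, was 0.34 to 0.48 under the other 4 scalings and so was not called there. Slc25a36 read 22.1, 53.2 and 156, at least 3.12-fold higher in Ymac-1 than in liver, a call lost after centring (0.92).

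Of the iron carriers, Slc25a37 (mitoferrin-1), the form needed in red cell precursors, read 764 in liver, 1430.1 in HCC and 277 in Ymac-1, so that the line lay 5.16-fold below the tumor. Slc25a28 (mitoferrin-2), the form of other tissues, read 1438, 2600.0 and 1649 and did not pass. Erythroid markers (4 of 6 measured) summed to 1127, 12133 and 30.7, with 3 of the 4 higher in the tumor than in liver and none of the 4 over the floor in the line. The part of blood cells in the Slc25a37 values was not tested.

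Relatives of the uncoupling proteins differed from each other. Slc25a14 (UCP5) read 403, 565 and 2586, a rise of 4.57-fold from tumor to line. Slc25a30 read 278, 223 and 449, a rise of 2.01-fold from HCC to Ymac-1 that barely passed. Slc25a27 (UCP4), best known from brain, was higher in HCC (437) than in liver (126) or Ymac-1 (95.8). Ucp1 and Ucp3, which bear the name, were under the floor on every array. Slc25a46, a divergent member of the outer membrane with a role in mitochondrial shape, read 454, 500.0 and 1022, a rise of 2.04-fold from tumor to line. Its second, dimmer probe read 38.6, 106 and 88.1 and did not show that step. Of the divergent members under other symbols, Mtch1 read 3266, 5180 and 12292 and Mtch2, an outer membrane protein insertase, read 834, 1139 and 1760.

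The remaining members were not assigned to a substrate here, and they included the largest fall of the family. Slc25a47, known as a liver-specific carrier, read 24977 in liver, 27574 in the tumor and 67.2 in the line. The step from tumor to line was a fall of 410.1-fold (-8.68 on the log2 scale). The 10 hepatocyte markers measured had a median of -8.67, with 5 of them under the floor in the line and so lower bounds. The 5 above the floor on all arrays had a median of -7.22. Slc25a48 was highest in HCC, at 59.3, 234 and 76.2. Slc25a43 read 6.15, 50.6 and 154, at least 3.08-fold higher in Ymac-1 than in liver, a call lost after centring (0.90). Slc25a45 (1306, 1434 and 1046) did not pass in the deposited values. For Ymac-1 minus liver it was lower under quantile (-1.02) and median (-1.12) scaling and after centring (-1.04). Slc25a34 (102, 64.1 and 29.9) fell at least 2.05-fold from liver to the line, and Slc25a35 (24.1, 59.0 and 52.5) stayed near the floor.

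Members were spread over 19 chromosomes, and 3 pairs were neighbours in RefSeq with at most 1 gene between them. Slc25a29 and Slc25a47 on chromosome 12, with Mir345 between them, were both lower in Ymac-1, by 4.33-fold and 410.1-fold from HCC. Slc25a24 and Slc25a54 on chromosome 3 were unlike each other, with Slc25a54 at 8.66 in Ymac-1. Slc25a23 and Slc25a41, adjacent on chromosome 17, were expressed and under the floor, respectively.

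Of 28 other genes of mitochondrial membrane transport measured, 4 were higher and 6 lower in the line than in HCC, with a median of 0.04, beside 14.7% and 15.9% of all genes. Mcu, the pore of the calcium uniporter, read 43.7, 51.6 and 643, and Sfxn3, a sideroflexin, read 83.6, 283 and 1445. Mpc1, a subunit of the pyruvate carrier, read 2382, 3017 and 712. Of 12 genes of mitochondrial biogenesis and content, 4 were higher and 3 lower, with a median of 0.72, and citrate synthase (Cs) read 1789, 3441 and 9886. The difference between these lists and the SLC25 family was not tested.

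The scale on which the arrays were compared changed many calls between tumor and liver. Relative to the median shift of 0.65, the HCC excess was 3.10 for Slc25a4 and 3.14 for Slc25a24, but 1.33 for Slc25a48, 1.15 for Slc25a27, 0.86 for Slc25a25 and 0.59 for Slc25a12. The 6 higher and 0 lower members became 4 and 4 under quantile normalization, 2 and 16 under median scaling, 3 and 5 under upper quartile scaling and 4 and 3 after centring on genes above the floor. Over all genes, median scaling turned 15.9% higher and 0.749% lower into 2.92% and 11.6%. The shares were 4.79% and 3.28% under quantile normalization, 5.00% and 3.68% under upper quartile scaling and 5.05% and 2.55% after centring. Between Ymac-1 and HCC the same scalings gave 11 and 15, 13 and 14, 12 and 14, and 7 and 15 members. Of all genes, 16.0%, 20.2%, 16.0% and 14.0% were higher there in the same order, and 13.6%, 11.1%, 13.9% and 16.5% were lower. Slc25a4 and Slc25a24 kept their rise at both steps under all 5 scalings. Slc25a14 and Slc25a17 stayed higher in Ymac-1 than in both tissues, and 11 of the 12 members lower in the line than in both (the exception was Slc25a42) stayed so, under each of them. Of these 11, Slc25a13, Slc25a20, Slc25a21, Slc25a23 and Slc25a47 were also lower in HCC than in liver under 1 or more of the scalings. None of the 3 members with a peak in HCC kept it in all 5. Slc25a47 ranged only from -8.74 to -8.20 between Ymac-1 and HCC, while between HCC and liver it ran from -1.14 to 0.14 and so had no settled direction.

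**Figure D3:**
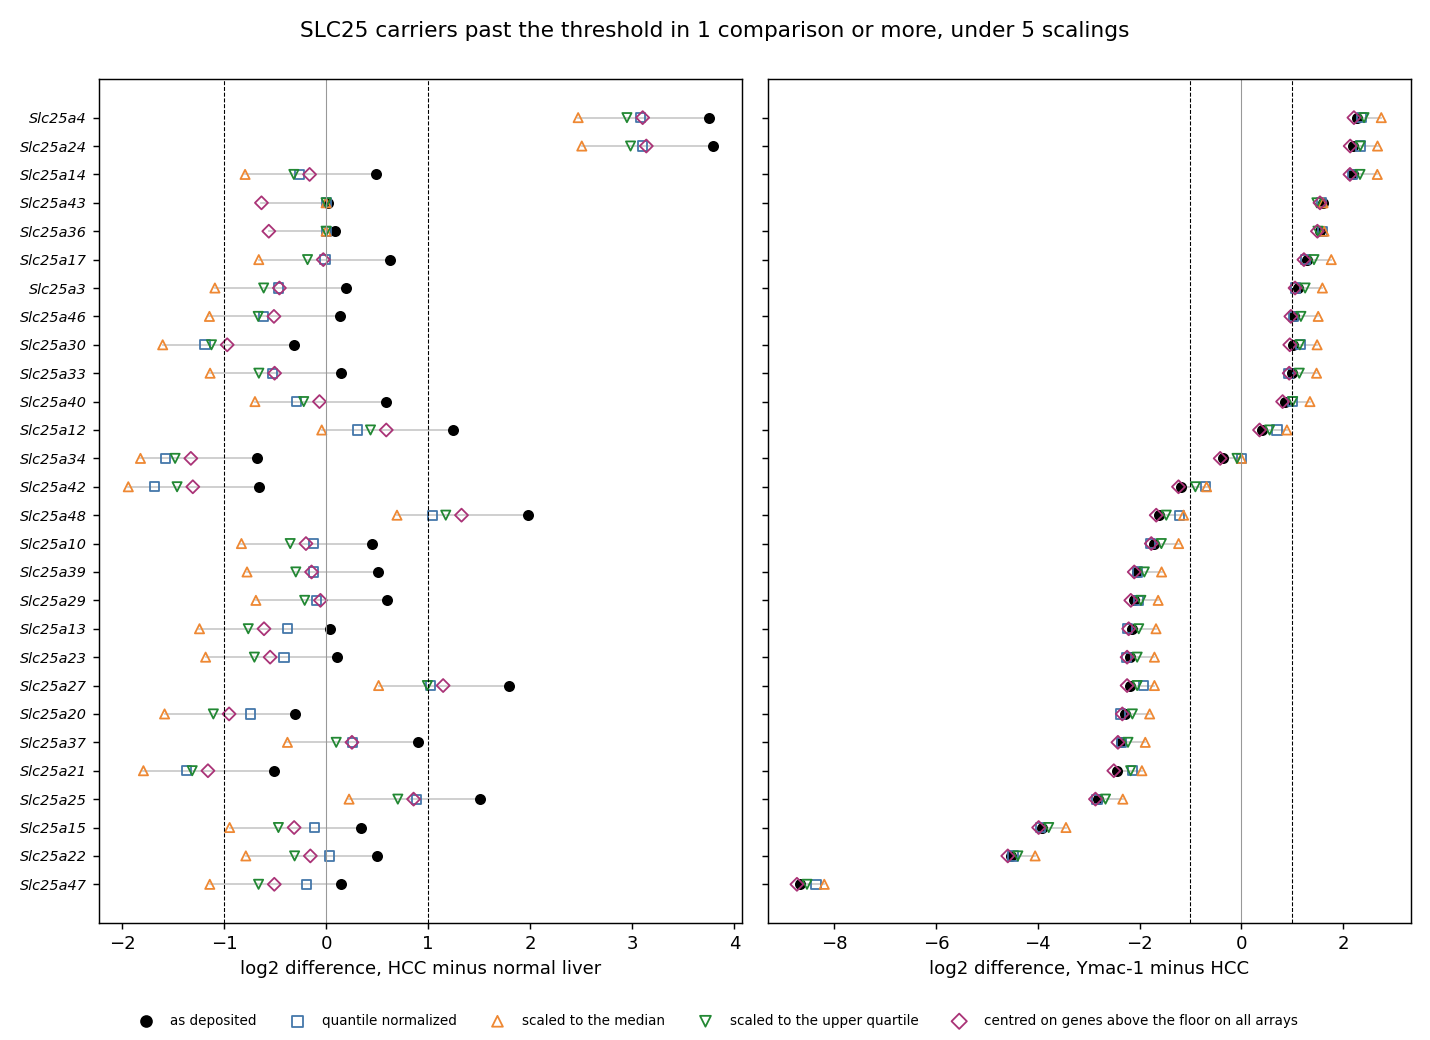
Log2 differences of the SLC25 members past the threshold in any comparison, HCC minus normal liver on the left and Ymac-1 minus HCC on the right, under the deposited values and 4 other ways of scaling the arrays, with dashed lines at -1 and 1. The spread of points within a gene is wider for HCC minus normal liver than for Ymac-1 minus HCC, and Slc25a4, at 2.47 to 3.75 in the former, stays above 1 under all 5.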

How the data were processed

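Total RNA (1 µg) of 3 samples was amplified, labelled with Cy5 and hybridised to single-colour oligonucleotide arrays, 1 per condition. The deposited value table holds one linear intensity per probe and array, which the authors give without control spots, detection calls or replicates; how background was corrected and arrays were scaled was not given in the sources used here. Intensities were used as deposited, and the number of arrays limits the precision. Probes with 1 annotated gene symbol were kept (4547 probes of the table had no symbol in the annotation table), intensities under 50 were set to 50, and log2 was taken. A gene was represented by the probe with the highest mean log2, with ties decided by the mean intensity. Differences were computed over all 19084 genes with Python 3.11.15, pandas 2.3.3 and numpy 2.4.6, drawn with matplotlib 3.10.9, and called at a log2 difference of 1; no p-value was computed. The script was tested on simulated data. Every member was named, and other genes were named from lists of related pathways and cell type markers. The members and lists were chosen with earlier results of these data known. Alternatives were quantile, median and upper quartile scaling, centring on the median of genes above the floor on all arrays, floors of 20 and 100, thresholds of 0.58 and 2, the mean over probes, and genes above the floor on all 3 arrays.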

Additional observations from a re-analysis of the deposited data

How the results depend on the processing

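No paired analysis was possible because each condition was 1 array with no replicate number, and leaving out an array would leave a comparison without a side. Of the members called, 2 of 6 for HCC minus normal liver, 19 of 24 for Ymac-1 minus HCC and 16 of 25 for Ymac-1 minus normal liver kept their call under every alternative that left the threshold at 1 and included the member. The 5 not kept between Ymac-1 and HCC were Slc25a30, Slc25a36, Slc25a42, Slc25a43 and Slc25a46, and the 9 against liver were Slc25a3, Slc25a12, Slc25a33, Slc25a34, Slc25a36, Slc25a40, Slc25a42, Slc25a43 and Slc25a46. The cause of these changes was not tested, and without replicates no setting can be set against array-to-array error. Members near the floor of 50 were most limited by signal.

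For HCC minus normal liver, members higher numbered 14 at a threshold of 0.58, 2 at a threshold of 2, 2 under median scaling, 3 under upper quartile scaling and 10 with a floor of 20. Members lower numbered 2 at a threshold of 0.58, 4 under quantile normalization, 16 under median scaling, 5 under upper quartile scaling and 3 after centring. Of all genes, 31.5% were higher and 1.58% lower at a threshold of 0.58. At a threshold of 2, 2.95% of genes were higher, and with a floor of 20, 22.1% were. The median over the members, 0.19 as deposited, reversed to -0.12 under quantile normalization, -0.77 under median scaling, -0.30 under upper quartile scaling and -0.46 after centring, and moved to 0.34 and 0.15 with floors of 20 and 100 and to 0.45 over the 33 members above the floor on all arrays. Slc25a12 reversed to -0.043 under median scaling.

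For Ymac-1 minus HCC, 3 members were higher and 12 lower at a threshold of 2, and 13 were higher and 18 lower at 0.58. The shares of all genes were 5.62% and 7.89% at 2, and 20.4% and 21.4% at 0.58. The median over the members moved from -0.34 to -0.14 under quantile normalization, 0.00 under median scaling and -0.082 under upper quartile scaling. It was -0.40 after centring, 0.00 with a floor of 100 and -0.49 over the 33 members. For Ymac-1 minus normal liver, members higher numbered 3 at a threshold of 2 and 7 under quantile normalization. They numbered 6 under median scaling, 6 under upper quartile scaling and 4 after centring. Of all genes, 11.4%, 16.1%, 14.8%, 15.9% and 14.1% were higher in the same order. At a threshold of 2, 7 members and 5.19% of all genes were lower. Members lower, 14 as deposited, numbered 18, 19, 18 and 19 under quantile, median and upper quartile scaling and centring. The shares of all genes lower there were 13.9%, 16.2%, 14.5% and 15.3%, against 9.41% as deposited. The median over the members moved from 0.00 to -0.17, -0.24, -0.10 and -0.72 under quantile, median and upper quartile scaling and centring. It was 0.055 over the 33 members above the floor on all arrays.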
